A study of Oryctolagus cuniculus with 9 samples.

Results

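Histone and DNA modifying enzymes were examined in RNA-seq libraries of primary rabbit parathyroid cells. The set comprised 58 of the 19511 loci in the expression table. It held every gene whose name begins with KMT, KDM, SETD, HDAC, SIRT, DNMT or KAT and a number, the 3 TET dioxygenases, the polycomb genes EZH1, EZH2, EED and SUZ12, and the acetyltransferases EP300 and CREBBP. KDM3A was left out of the set. Only loci with a single gene name were taken, and each of the 58 names had 1 locus. Membership rested on gene names and the rule reads no measured value, but the set was chosen with earlier results of these data known. All 58 symbols were found in the RefSeq gene table of the rabbit assembly mOryCun1.1.

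There were 3 groups of 3 libraries. The control cells were untreated, and the labels place them at day 0. The second group, called HR, went through hypoxia for 6 h and then reoxygenation for 6 h, which mimics ischaemia followed by reperfusion in a dish. The third group, called GA+HR, received 1200 µM gallic acid, a plant polyphenol, over the 24 h that preceded an identical hypoxia and reoxygenation. In the labels the genotype of the controls is WT, and that field reads IRI for HR and IRI with GA for GA+HR, which names the injury and the pretreatment. Strain, sex and age of the rabbits are not given in the sources used here. Nor do the labels say whether the HR cells were kept in culture for the 24 h of pretreatment, or whether each library had an animal or culture of its own. P-values therefore measure the spread between libraries, which may be technical. Libraries were made from 1.1 µg of total RNA each.

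Histone tails carry methyl and acetyl groups that are placed by one class of enzymes and removed by another. Methylation of histone H3 at lysine 4 is found at active promoters and enhancers, methylation at lysine 27 by polycomb repressive complex 2 (PRC2) is found at silenced genes, and acetylation by enzymes such as EP300 accompanies active transcription. DNA methyltransferases methylate cytosine, and TET dioxygenases oxidise that mark. The jumonji demethylases and the TET enzymes consume oxygen and 2-oxoglutarate, and sirtuins consume NAD, which ties these classes to the metabolic state of the cell. In the parathyroid gland, loss of the H3K4 methyltransferase scaffold menin causes tumours.

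Values are FPKM, fragment numbers scaled by transcript length and library size. The table holds no counts, so depth is unknown. The summed FPKM of a library was 1648010 to 1696490 in control, 730117 to 752065 in HR and 467499 to 516231 in GA+HR, and the median locus fell with it, by 1.25 (log2) in HR against control, by 0.50 in GA+HR against HR and by 1.77 in GA+HR against control. For this reason changes below are set against the median locus: FPKM was divided by a size factor per library, 1 was added, and log2 values were compared. This scale understates the changes of low genes. A call, written as rose or fell, means an adjusted p below 0.05 in limma (Benjamini-Hochberg adjustment over 10996 loci), and log2 changes are given ± SE. Because FPKM of different loci could not be shown to share a scale, no result rests on a ranking of levels between genes. Mean FPKM did serve to choose the enzyme of each role that is given in full. Sums of FPKM over loci carry the same limit. Control 1 stood apart from the other controls, with a correlation across loci of 0.985 and 0.983 with controls 2 and 3, against 0.997 between those. Of 52 enzymes tested, 35 were higher in control 1 than the mean of controls 2 and 3, beside 5862 of 10996 loci.

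Of the 58 enzymes, 52 had 3 or more libraries with an FPKM of 1 or higher and were tested. KMT2B, SETD1A and TET3 reached that level in control libraries alone and were not tested when a control was left out. Passing through the controls fixes the direction of their deposited change against control. Relative to the median locus it favours a fall without fixing it, and SETD1A gave 0.098 in HR against control (limma adjusted p = 0.421). Of the 52 enzymes, 25 fell and 7 rose in HR against control, where 28.9% of all loci tested fell and 27.6% rose. In GA+HR against HR, 19 fell and 4 rose, where 15.2% of all loci fell and 18% rose. In GA+HR against control, 31 fell and 7 rose, where 36.6% of all loci fell and 31.9% rose. Leaving out control 1 gave 7 rising in GA+HR against HR, where EED, HDAC3 and SIRT1 joined the rises and HDAC5, KDM3B, KDM5B and TET1 the falls, and leaving out HR 1 or HR 3 gave 12 falling there. With all libraries, the enzymes that fell made up 48.1%, 36.5% and 59.6% of those tested. The median log2 change of the 52 was -0.29, -0.23 and -0.50, beside -0.026, -0.0087 and -0.088 over all loci. Counted by libraries that did not overlap, 31 enzymes were lower and 9 higher in HR against control (34.1% and 32.3% of all loci), 26 lower and 9 higher in GA+HR against HR (25% and 26.5%), and 33 lower and 7 higher in GA+HR against control (37.8% and 33.2%). The 3 comparisons share libraries and are not independent of each other. In these bulk samples, fewer cells of a type and less RNA per cell cannot be told apart.

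On FPKM as deposited, without the size factor, none of the 52 rose in any comparison, and 52, 45 and 51 of them fell, with medians of -1.65, -0.79 and -2.42. On that scale 86% of all loci fell in HR against control, 64.3% in GA+HR against HR and 90.1% in GA+HR against control, and 4.18%, 1.69% and 4.1% rose. Every rise of an enzyme called below with all libraries is thus a smaller fall than that of the median locus. The exception is HDAC10 in GA+HR against HR, whose deposited value was higher without passing the test. The enzymes took 0.323% ± 0.0426 (SD, n = 3) of the summed FPKM in control, 0.215% ± 0.00367 in HR and 0.184% ± 0.0106 in GA+HR, a share that no scaling between libraries can move. Control 1 raised the control mean, with 0.372% against 0.297% in control 2 and 0.2996% in control 3. The highest HR library had 0.219%.

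**Figure D1:**
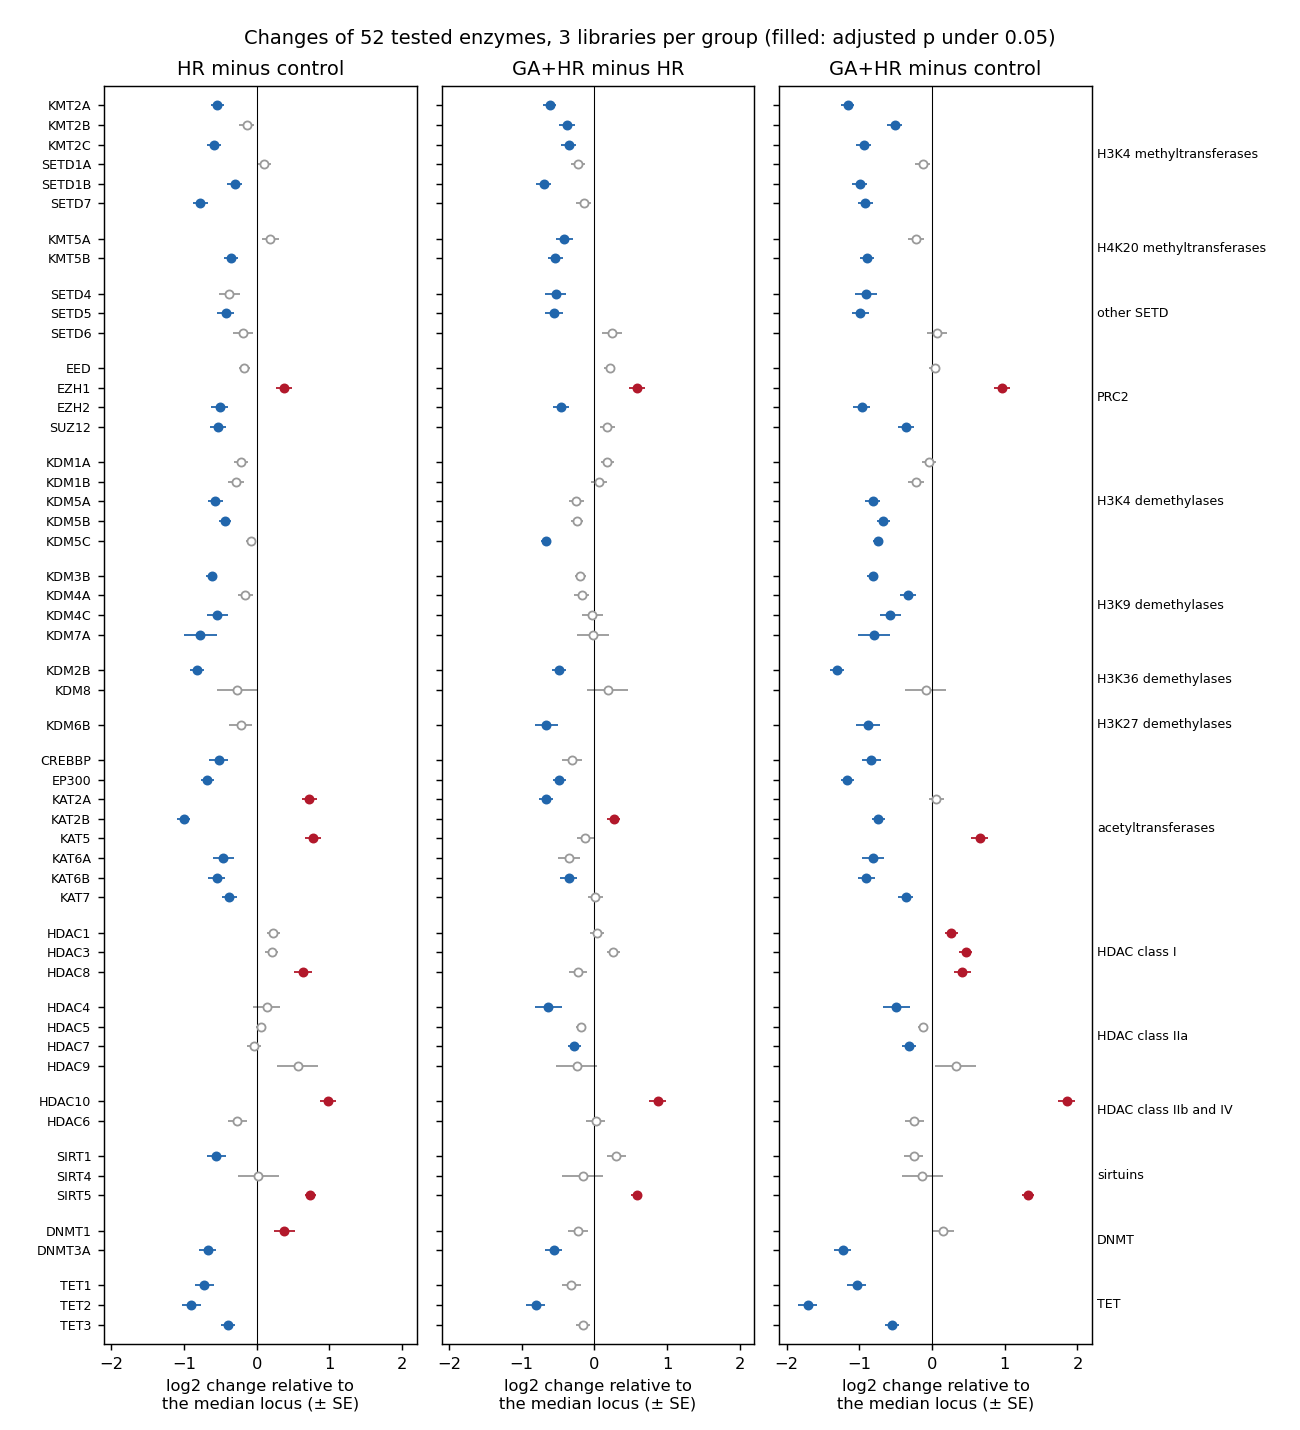
Log2 change of each of the 52 tested enzymes relative to the median locus, grouped by role, for HR against control, GA+HR against HR and GA+HR against control. Filled points passed the test at an adjusted p below 0.05, of which 25, 19 and 31 lie below 0 and 7, 4 and 7 above it; on deposited FPKM none of the 52 rose.

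Most of the enzymes that methylate H3K4 fell, and none of the 6 tested rose in any comparison. In HR against control 4 fell (66.7%, beside 28.9% of all loci), and in GA+HR against HR 4 fell (66.7%, beside 15.2%). In GA+HR against control 5 fell (83.3%, beside 36.6%), among them KMT2B, which passed the filter through control libraries alone. Of all loci, 27.6%, 18% and 31.9% rose in these comparisons. KMT2A (MLL1), a large H3K4 methyltransferase that works with menin, stood at 620.2, 489.9 and 513 FPKM in control, 128, 137 and 137 in HR and 49.7, 54.4 and 61.7 in GA+HR. Each library of a later group lay below every library of the group before. Its log2 change was -0.54 ± 0.088 in HR against control (limma adjusted p = 7.42e-04), -0.61 ± 0.088 in GA+HR against HR (adjusted p = 0.00105) and -1.16 ± 0.088 in GA+HR against control (adjusted p = 3.86e-06).

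KMT2C (MLL3), which marks enhancers with monomethylated H3K4, averaged 185 ± 31.3 FPKM (mean ± SD, n = 3) in control, 44.1 ± 2.07 in HR and 21.7 ± 2.05 in GA+HR, and fell by 0.59 in HR against control and by 0.94 in GA+HR against control. Its call in GA+HR against HR (-0.35 ± 0.10) was lost without HR 1, HR 3, GA+HR 1 or GA+HR 2, at an adjusted p of up to 0.0848. SETD1B, a catalytic subunit of the SET1/COMPASS complex, read 10.7, 8.85 and 8.89 FPKM in control, 2.46, 2.78 and 2.76 in HR and 0.882, 0.766 and 0.983 in GA+HR. The groups were fully separated, and the change was -0.70 ± 0.10 in GA+HR against HR (limma adjusted p = 0.0012) and -0.996 ± 0.10 against control (adjusted p = 2.66e-05). Its call in HR against control (-0.30 ± 0.10) was lost when any 1 of the 6 libraries compared was left out, at an adjusted p of up to 0.108. SETD7, which monomethylates H3K4 and several non-histone proteins, read 53.4, 57.6 and 55.05 FPKM in control, 10.9, 11.7 and 11.9 in HR and 6.81, 5.76 and 7.03 in GA+HR. It fell between control and HR (-0.77 ± 0.10, limma adjusted p = 2.34e-04). In GA+HR against HR SETD7 gave -0.14 ± 0.10, with groups that overlapped relative to the median locus but not on deposited FPKM. KMT2B, a paralogue of KMT2A, was at low levels, with means of 3.06, 0.943 and 0.362 FPKM. It reached 1 FPKM in the controls alone, so its deposited change against control could go only downwards. That favours its call as a fall in GA+HR against control (-0.51 ± 0.11). Against HR its fall (-0.38 ± 0.11) was lost without HR 1, HR 3 or GA+HR 2 (adjusted p up to 0.0792). SETD1A likewise passed the filter only through control libraries, with means of 1.19, 0.507 and 0.2103 FPKM, and was called in no comparison.

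Methylation of H4K20 is begun by KMT5A, which places the first methyl group, and continued by KMT5B, which adds further ones. KMT5A read 116, 141 and 126 FPKM in control, 54.9, 51.05 and 52.8 in HR and 23.5, 28.1 and 23.6 in GA+HR. Relative to the median locus its groups overlapped in HR against control (0.19 ± 0.11, limma adjusted p = 0.175). It fell in GA+HR against HR (-0.41 ± 0.11), a call lost without HR 1, HR 3, GA+HR 1 or GA+HR 3 (adjusted p up to 0.0712). KMT5A gave -0.22 ± 0.11 in GA+HR against control, which became a fall without control 1 (-0.32, adjusted p = 0.0118) or GA+HR 2 (-0.30, adjusted p = 0.0481). KMT5B averaged 126 ± 22.1 FPKM (mean ± SD, n = 3) in control, 35.3 ± 2.34 in HR and 15.2 ± 0.973 in GA+HR, and fell in GA+HR against HR (-0.54 ± 0.099) and against control (-0.89 ± 0.099). Its fall in HR against control (-0.36 ± 0.099) became -0.25 without control 1 and was lost without HR 2 (adjusted p = 0.052). SETD5, a SET-domain protein of chromatin complexes, read 127, 81.7 and 91.1 FPKM in control, 26.4, 25.2 and 27.5 in HR and 11.6, 11.01 and 10.8 in GA+HR. It changed by -0.56 ± 0.12 in GA+HR against HR (limma adjusted p = 0.00797) and by -0.99 ± 0.12 against control (adjusted p = 8.57e-05). Control 1 was the highest library, and the change of -0.43 in HR against control became -0.27 without it. SETD4 averaged 7.22, 1.83 and 0.669 FPKM in control, HR and GA+HR and fell against control in GA+HR (-0.91 ± 0.15). In HR against control SETD4 gave -0.38 ± 0.15 (adjusted p = 0.0536), past the threshold without GA+HR 1 (adjusted p = 0.0481) and -0.22 without control 1. Its fall against HR (-0.53 ± 0.15) was lost without any of HR 1, HR 2, GA+HR 2 or GA+HR 3, at an adjusted p of up to 0.0791. SETD6, which methylates the NF-kappaB subunit RelA, averaged 43.7, 13.8 and 10.5 FPKM and was not called.

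Within PRC2, which methylates H3K27, the alternative catalytic subunits moved in opposite directions relative to the median locus, while neither rose on deposited FPKM. EZH2, the catalytic subunit typical of dividing cells, read 28.3, 28.6 and 30.1 FPKM in control, 7.12, 6.85 and 7.67 in HR and 3.56, 2.75 and 3.303 in GA+HR. Its log2 change was -0.51 ± 0.11 in HR against control (limma adjusted p = 0.00449), -0.46 ± 0.11 in GA+HR against HR (adjusted p = 0.0142) and -0.97 ± 0.11 in GA+HR against control (adjusted p = 6.04e-05). The second of these was lost without HR 3, at an adjusted p of 0.0548. EZH1, the catalytic subunit found also in resting cells, read 16.99, 12.9 and 12.4 FPKM in control, 6.88, 6.94 and 6.54 in HR and 7.003, 5.93 and 7.102 in GA+HR. Its deposited levels in HR and GA+HR overlapped, both below control. Relative to the median locus EZH1 rose by 0.59 ± 0.11 in GA+HR against HR (adjusted p = 0.00394), where the deposited change was -0.024, and by 0.97 ± 0.11 in GA+HR against control (adjusted p = 5.14e-05), where it was -0.97. The rise of 0.38 ± 0.11 in HR against control, with a deposited change of -0.94, was lost at equal summed FPKM (adjusted p = 0.469), after quantile normalisation (adjusted p = 0.121) and without control 2, control 3, HR 1 or HR 2 (adjusted p up to 0.0544).

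EED, the PRC2 subunit that binds methylated H3K27, read 165, 143 and 134 FPKM in control, 44.5, 47.5 and 50.2 in HR and 35.4, 36.1 and 32.4 in GA+HR, and was called in no comparison relative to the median locus with all libraries. It gave 0.21 ± 0.074 in GA+HR against HR, which passed the test without control 1 (adjusted p = 0.0346) or GA+HR 3 (adjusted p = 0.0423), beside a deposited change of -0.44. SUZ12, a scaffold subunit that PRC2 needs for activity, averaged 119 ± 20.8 FPKM (mean ± SD, n = 3) in control, 29.5 ± 3.08 in HR and 21.04 ± 1.01 in GA+HR. It fell in HR against control (-0.53 ± 0.11, limma adjusted p = 0.00256) and in GA+HR against control (-0.35 ± 0.11, adjusted p = 0.0157), while GA+HR against HR gave 0.18 ± 0.11 (adjusted p = 0.231). Of the 4 PRC2 genes, 1 rose and 2 fell in HR against control (27.6% and 28.9% of all loci). In GA+HR against HR 1 rose and 1 fell (18% and 15.2%). In GA+HR against control 1 rose and 2 fell (31.9% and 36.6%). The rising share was thus 25% in each comparison, near that of all loci, and on deposited FPKM none rose.

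**Figure D2:**
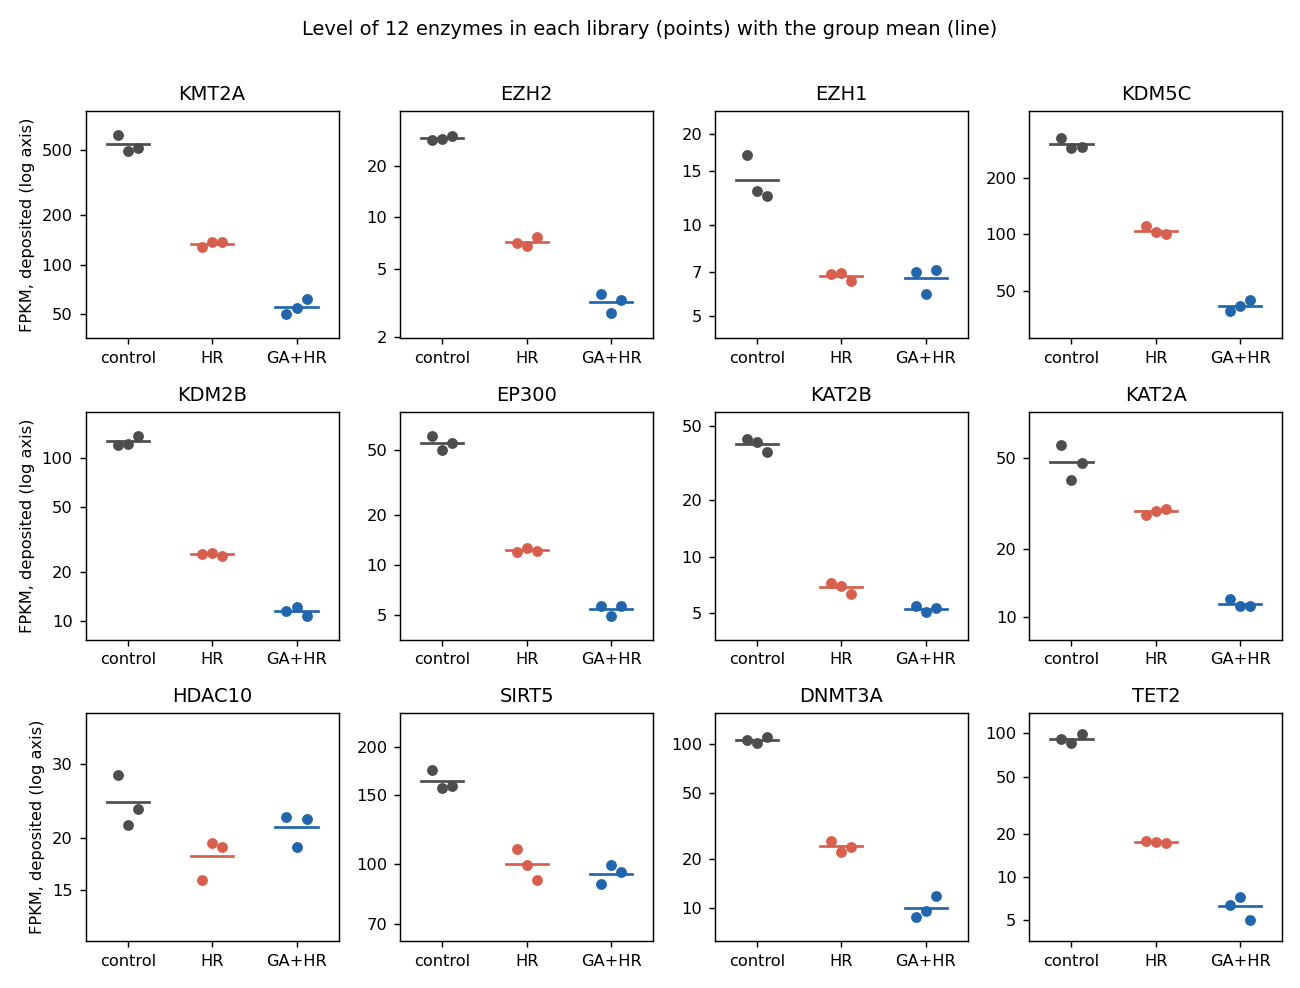
Deposited FPKM of 12 enzymes in each of the 9 libraries, on log axes with a range of their own per panel; points are libraries and lines are group means. KMT2A, EZH2, TET2 and DNMT3A step down from control to HR to GA+HR without overlap, whereas EZH1, HDAC10 and SIRT5 overlap between HR and GA+HR. Falls on this scale were common: 52 of the 52 tested enzymes fell in HR against control, beside 86% of all loci. In GA+HR against HR 45 fell, beside 64.3%.

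The H3K4 demethylases KDM5A, KDM5B and KDM5C are jumonji enzymes that remove di- and trimethylation. KDM5B read 331, 361 and 358 FPKM in control, 95.9, 92.8 and 93.8 in HR and 47.7, 49.1 and 54.5 in GA+HR. It fell in HR against control (-0.43 ± 0.083, limma adjusted p = 0.00202) and gave -0.24 ± 0.083 in GA+HR against HR (adjusted p = 0.0572), which passed without control 1 (adjusted p = 0.00762) or GA+HR 3 (adjusted p = 0.0453). KDM5C read 329, 289 and 293 FPKM in control, 111, 103 and 100.2 in HR and 38.8, 41.2 and 44.2 in GA+HR. Relative to the median locus it gave -0.075 ± 0.067 in HR against control (adjusted p = 0.368), with overlapping groups, and changed by -0.67 ± 0.067 in GA+HR against HR (adjusted p = 1.62e-04). KDM5A averaged 39.9 ± 4.66 FPKM (mean ± SD, n = 3) in control, 9.53 ± 0.4599 in HR and 5.02 ± 0.652 in GA+HR, and fell in HR against control (-0.57 ± 0.11) and in GA+HR against control (-0.82 ± 0.11). Against HR it gave -0.25 ± 0.11, past the threshold only without GA+HR 3 (-0.34, adjusted p = 0.0339). The flavin-dependent demethylases KDM1A (LSD1) and KDM1B were called in no comparison with all libraries. KDM1B averaged 31.4, 9.16 and 6.07 FPKM in control, HR and GA+HR. In HR against control it gave -0.29 ± 0.11 (adjusted p = 0.052), which passed without control 3 (adjusted p = 0.0433) and was -0.17 without control 1. KDM1A averaged 263 ± 9.05 FPKM (mean ± SD, n = 3) in control, 82.2 ± 1.41 in HR and 58.8 ± 6.46 in GA+HR, with changes of -0.22 ± 0.090, 0.17 ± 0.090 and -0.041 ± 0.090 in the 3 comparisons. The first of these (adjusted p = 0.0688) passed the test without control 1 (-0.27, adjusted p = 0.0193), GA+HR 1 (adjusted p = 0.0461) or GA+HR 3 (adjusted p = 0.0414). Of the 5 H3K4 demethylases, 2 fell in HR against control, 1 in GA+HR against HR and 3 in GA+HR against control, and none rose. The falls were 40%, 20% and 60%, beside 28.9%, 15.2% and 36.6% of all loci, the second lying near the background. Of all loci, 27.6%, 18% and 31.9% rose.

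Of the 4 H3K9 demethylases, 3 fell in HR against control, none was called in GA+HR against HR, and all 4 fell in GA+HR against control. Of all loci, 28.9%, 15.2% and 36.6% fell in these comparisons and 27.6%, 18% and 31.9% rose. KDM7A, which removes methyl groups from H3K9 and H3K27, read 814, 404 and 361 FPKM in control, 104, 103 and 106 in HR and 66.8, 63.8 and 63.99 in GA+HR. Control 1 was about double the other controls, and the other groups lay below all 3 controls. The change was -0.77 ± 0.22 in HR against control (limma adjusted p = 0.0152) and -0.79 ± 0.22 in GA+HR against control (adjusted p = 0.0107). Without control 1 these were -0.44 (adjusted p = 9.97e-05) and -0.47 (adjusted p = 4.64e-05), and after quantile normalisation the first had an adjusted p of 0.0518. KDM3B, a jumonji enzyme acting on mono- and dimethylated H3K9, averaged 304 ± 32.02 FPKM (mean ± SD, n = 3) in control, 71.2 ± 0.305 in HR and 39.3 ± 3.704 in GA+HR, and fell by 0.62 and 0.82 in the comparisons with control. Against HR it gave -0.20 ± 0.077 in GA+HR, past the threshold without control 1 (adjusted p = 0.0404) or GA+HR 3 (adjusted p = 0.0325). KDM4C, which acts on trimethylated H3K9 and H3K36, averaged 48.5 ± 3.798 FPKM (mean ± SD, n = 3) in control, 11.9 ± 0.584 in HR and 7.4005 ± 1.35 in GA+HR, with -0.54 ± 0.14 in HR and -0.57 ± 0.14 in GA+HR against control. Its relative KDM4A averaged 110.0 ± 9.78 FPKM (mean ± SD, n = 3) in control, 35.8 ± 2.37 in HR and 20.04 ± 2.78 in GA+HR, and fell in GA+HR against control (-0.33 ± 0.11), a call lost without control 3 (-0.32, adjusted p = 0.0527) or GA+HR 2 (-0.21, adjusted p = 0.0566).

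KDM2B, an H3K36 demethylase that brings a PRC1 complex to CpG islands, was among the enzymes that fell in all 3 comparisons. It read 120.1, 121 and 136 FPKM in control, 25.7, 26.1 and 25.1 in HR and 11.4, 12.1 and 10.7 in GA+HR. The changes were -0.82 ± 0.094 in HR against control (limma adjusted p = 9.17e-05), -0.49 ± 0.094 in GA+HR against HR (adjusted p = 0.0046) and -1.30 ± 0.094 in GA+HR against control (adjusted p = 2.62e-06). KDM8, described as an H3K36 demethylase, averaged 15.2 ± 1.87 FPKM (mean ± SD, n = 3) in control, 4.57 ± 1.42 in HR and 3.44 ± 1.52 in GA+HR, and was not called. KDM6B (JMJD3), an H3K27 demethylase induced in inflammation, read 94.7, 60.01 and 63.7 FPKM in control, 21.6, 19.9 and 25.4 in HR and 8.36, 7.78 and 10.1 in GA+HR. Control 1 was again the highest library. KDM6B gave -0.22 ± 0.16 in HR against control (adjusted p = 0.272), and -0.046 without control 1 (adjusted p = 0.788). It changed by -0.66 ± 0.16 in GA+HR against HR (adjusted p = 0.0128) and by -0.88 ± 0.16 against control (adjusted p = 9.84e-04), or -0.71 without control 1. KDM3A, the H3K9 demethylase outside the set that is a known target of hypoxia-inducible factor, averaged 11.5, 2.98 and 2.25 FPKM in control, HR and GA+HR. It fell in HR against control (-0.41, limma adjusted p = 0.0187) and was not called in the other comparisons.

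All 8 acetyltransferases tested were called in HR against control: 2 rose and 6 fell. These are 25% and 75%, beside 27.6% and 28.9% of all loci, so the rising share lay near the background. KAT2B (PCAF) and KAT2A (GCN5), paralogues that acetylate H3K9 in SAGA-type complexes, went in opposite directions in HR relative to the median locus, while both fell on deposited FPKM. KAT2B read 42.3, 41.1 and 36.1 FPKM in control, 7.27, 7.03 and 6.32 in HR and 5.46, 5.07 and 5.34 in GA+HR. It changed by -1.01 ± 0.089 in HR against control (limma adjusted p = 1.92e-05) and by -0.74 ± 0.089 in GA+HR against control (adjusted p = 7.32e-05). Its rise of 0.27 ± 0.089 in GA+HR against HR (adjusted p = 0.0479), a deposited change of -0.32, was lost at equal summed FPKM, after quantile normalisation and without any of 8 of the 9 libraries left out in turn, control 1 being the exception (adjusted p up to 0.15). KAT2A read 57.1, 40.3 and 47.8 FPKM in control, 28.1, 29.4 and 29.99 in HR and 11.99, 11.1 and 11.2 in GA+HR. It rose by 0.72 ± 0.10 in HR against control (adjusted p = 3.27e-04), where the deposited change was -0.70, and changed by -0.67 ± 0.10 in GA+HR against HR (adjusted p = 0.00145). In GA+HR against control KAT2A gave 0.057 ± 0.10, with groups that overlapped relative to the median locus but not on deposited FPKM.

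KAT5 (TIP60), which acetylates H4 and takes part in DNA damage signalling, read 41.5, 36.1 and 42.3 FPKM in control, 26.4, 23.9 and 25.8 in HR and 12.5, 16.4 and 15.2 in GA+HR. It rose relative to the median locus in HR against control (0.78 ± 0.11, limma adjusted p = 3.97e-04, deposited -0.63). It also rose in GA+HR against control (0.66 ± 0.11, adjusted p = 7.40e-04, deposited -1.39), though not at equal summed FPKM (adjusted p = 0.0749). EP300, a coactivator that acetylates H3K27, read 60.5, 50.02 and 55.2 FPKM in control, 11.97, 12.7 and 12.1 in HR and 5.66, 4.95 and 5.62 in GA+HR. The 3 groups did not overlap, and EP300 changed by -0.68 ± 0.090 (adjusted p = 2.13e-04), -0.49 ± 0.090 (adjusted p = 0.00366) and -1.16 ± 0.090 (adjusted p = 3.94e-06) in HR against control, GA+HR against HR and GA+HR against control. CREBBP, its paralogue, read 217, 203 and 203 FPKM in control, 47.97, 61.99 and 47.9 in HR and 30.5, 22.1 and 27.5 in GA+HR. It fell in HR against control (-0.53 ± 0.13) and in GA+HR against control (-0.83 ± 0.13), and gave -0.31 ± 0.13 between the HR groups. KAT7, KAT6A and KAT6B, acetyltransferases of the MYST family, fell in both comparisons with control. Their mean levels were 129, 35.9 and 22.9 FPKM for KAT7, 14.04, 3.51 and 1.66 for KAT6A and 13.3, 3.09 and 1.44 for KAT6B in control, HR and GA+HR. The fall of KAT6A in HR against control (-0.46 ± 0.15) became -0.35 and was lost without control 1, and was lost also without HR 2 or HR 3 (adjusted p up to 0.0896). KAT6B also fell in GA+HR against HR (-0.35 ± 0.12), a call lost without 7 of the 9 libraries in turn, all but control 1 and HR 2 (adjusted p up to 0.147).

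The class I histone deacetylases, the catalytic subunits of the main corepressor complexes, were among the few enzymes that rose relative to the median locus, whereas they fell on deposited FPKM. None of the 3 tested fell, and all 3 rose in GA+HR against control, with deposited changes of -1.49 for HDAC1, -1.60 for HDAC3 and -1.55 for HDAC8. Of all loci, 31.9% rose in GA+HR against control. Falls made up 28.9% of all loci in HR against control, 15.2% in GA+HR against HR and 36.6% in GA+HR against control. HDAC3, the deacetylase of the NCoR/SMRT complexes, read 63.2, 62.96 and 66.1 FPKM in control, 24.7, 28.9 and 27.3 in HR and 19.3, 22 and 20.1 in GA+HR. Its change was 0.46 ± 0.092 in GA+HR against control (limma adjusted p = 0.00161) and was not past the threshold at equal summed FPKM (adjusted p = 0.445). HDAC3 gave 0.26 ± 0.092 in GA+HR against HR, which passed without control 1 (adjusted p = 0.0366), beside a deposited change of -0.38. HDAC8 read 25.9, 24.7 and 19.99 FPKM in control, 12.9, 15.7 and 12.4 in HR and 7.84, 6.598 and 7.51 in GA+HR, and rose in HR against control (0.64 ± 0.12, adjusted p = 0.00181, deposited -0.74). In GA+HR against control its rise (0.42 ± 0.12, adjusted p = 0.0128) was lost at equal summed FPKM (adjusted p = 0.672) and after quantile normalisation (adjusted p = 0.0888). HDAC1, found in the Sin3, NuRD and CoREST complexes, read 9.01, 8.902 and 9.23 FPKM in control, 3.78, 4.11 and 4.02 in HR and 2.64, 2.47 and 2.62 in GA+HR. The rise of HDAC1 in GA+HR against control (0.26 ± 0.090, adjusted p = 0.0264) turned to -0.051 at equal summed FPKM and was lost without control 1, control 2, GA+HR 1 or GA+HR 3 (adjusted p up to 0.0704).

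Class IIa deacetylases, which shuttle between nucleus and cytoplasm and bind MEF2 factors, were not called in HR against control (0 of 4). There 27.6% of all loci rose and 28.9% fell. HDAC5 read 238, 219 and 222 FPKM in control, 86.4, 84.6 and 86.4 in HR and 49.4, 43.8 and 49.9 in GA+HR, and was called in no comparison with all libraries. Its change of -0.18 ± 0.065 in GA+HR against HR passed the test without control 1 (adjusted p = 0.028). HDAC4 read 44.8, 31.2 and 30.2 FPKM in control, 13.7, 14.3 and 14.01 in HR and 5.16, 7.57 and 4.34 in GA+HR. It fell in GA+HR against HR (-0.63 ± 0.19, limma adjusted p = 0.029), a call lost without HR 1, 2 or 3, GA+HR 1 or GA+HR 3 (adjusted p up to 0.0855). Its fall in GA+HR against control (-0.49 ± 0.19) had groups that overlapped relative to the median locus, though not on deposited FPKM. That fall became -0.35 without control 1 (adjusted p = 0.125), and was lost as well without HR 1, 2 or 3, GA+HR 1 or GA+HR 3 (adjusted p up to 0.133). HDAC7 averaged 125 ± 15.1 FPKM (mean ± SD, n = 3) in control, 44.1 ± 0.474 in HR and 22.98 ± 2.59 in GA+HR, and fell in GA+HR against control (-0.31 ± 0.093). Against HR its fall (-0.27 ± 0.093) was lost without any of 6 libraries (control 2, HR 1, 2 or 3, GA+HR 2 or GA+HR 3), at an adjusted p of up to 0.151. HDAC9 was set apart by control 1, with 80.04, 36.3 and 33.6 FPKM in the controls, and was not called with all libraries. It gave 0.57 ± 0.28 in HR against control and 0.33 ± 0.28 in GA+HR against control. Without control 1 both passed as rises relative to the median locus, at 0.92 (adjusted p = 0.003) and 0.67 (adjusted p = 0.0114), while the deposited changes over all libraries were -0.85 and -1.71.

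HDAC10, a class IIb enzyme known as a polyamine deacetylase, had the largest rise of any enzyme tested in each comparison relative to the median locus. It read 28.3, 21.4 and 23.4 FPKM in control, 15.9, 19.4 and 18.95 in HR and 22.4, 18.97 and 22.2 in GA+HR. On this deposited scale the GA+HR libraries overlapped both other groups. The change relative to the median locus was 0.98 ± 0.11 in HR against control (limma adjusted p = 1.03e-04), 0.87 ± 0.11 in GA+HR against HR (adjusted p = 6.73e-04) and 1.85 ± 0.11 in GA+HR against control (adjusted p = 1.04e-06), beside deposited changes of -0.41, 0.22 and -0.19. HDAC6, a cytoplasmic tubulin deacetylase of the same class, averaged 36.2 ± 0.845 FPKM (mean ± SD, n = 3) in control, 10.9 ± 1.52 in HR and 6.98 ± 0.946 in GA+HR, and was not called.

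Sirtuins deacylate proteins at the cost of NAD, and SIRT5 is a mitochondrial one that removes succinyl and malonyl groups from lysine. SIRT5 read 174, 157 and 159 FPKM in control, 109, 99.4 and 90.9 in HR and 88.5, 98.9 and 95.1 in GA+HR. The HR and GA+HR libraries overlapped on deposited FPKM, and all lay below the controls. Relative to the median locus SIRT5 rose by 0.74 ± 0.076 in HR against control (limma adjusted p = 4.87e-05), by 0.58 ± 0.076 in GA+HR against HR (adjusted p = 6.73e-04) and by 1.32 ± 0.076 in GA+HR against control (adjusted p = 6.65e-07), with deposited changes of -0.71, -0.081 and -0.79. SIRT1, the nuclear deacetylase of p53 and FOXO factors, averaged 116 ± 26.9 FPKM (mean ± SD, n = 3) in control, 28.2 ± 3.05 in HR and 21.96 ± 1.801 in GA+HR. It fell in HR against control (-0.55 ± 0.13, adjusted p = 0.00616) and gave 0.30 ± 0.13 in GA+HR against HR (adjusted p = 0.11), which passed without control 1 (adjusted p = 0.0366), beside a deposited change of -0.34. SIRT4, also mitochondrial, averaged 6.24, 2.39 and 1.29 FPKM in control, HR and GA+HR and was not called.

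New DNA methylation and its upkeep rest on different enzymes. DNMT3A, which sets new methylation, read 105, 101 and 109.5 FPKM in control, 25.8, 22.1 and 23.4 in HR and 8.85, 9.56 and 11.9 in GA+HR. It fell in HR against control (-0.67 ± 0.12, limma adjusted p = 0.00122), in GA+HR against HR (-0.56 ± 0.12, adjusted p = 0.00727) and in GA+HR against control (-1.23 ± 0.12, adjusted p = 1.78e-05). DNMT1, which copies methylation at replication, read 30.8, 31.1 and 28.3 FPKM in control, 14.8, 14.2 and 14.2 in HR and 5.996, 9.34 and 8.19 in GA+HR. Its rise in HR against control (0.38 ± 0.14, adjusted p = 0.044), a deposited change of -1.01, was lost at equal summed FPKM, after quantile normalisation, with no filter, and without any of the 3 controls, any of the 3 HR libraries or GA+HR 3 (adjusted p up to 0.108). In the other comparisons DNMT1 was not called (-0.22 ± 0.14 and 0.16 ± 0.14), except that the change in GA+HR against control was 0.32 and passed without GA+HR 1 (adjusted p = 0.0167), where the deposited change over all libraries was -1.83.

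All 3 TET genes, whose products oxidise 5-methylcytosine, fell in both comparisons with control. Of all loci, 28.9% fell in HR against control and 36.6% in GA+HR against control. TET2 read 91.9, 85.3 and 98.8 FPKM in control, 17.8, 17.5 and 17.3 in HR and 6.37, 7.26 and 4.99 in GA+HR, a step down at each group with no overlap. It changed by -0.90 ± 0.13 in HR against control (limma adjusted p = 3.97e-04), by -0.81 ± 0.13 in GA+HR against HR (adjusted p = 0.00201) and by -1.71 ± 0.13 in GA+HR against control (adjusted p = 4.17e-06). TET1 read 36.6, 40.1 and 44.8 FPKM in control, 8.89, 7.77 and 9.32 in HR and 3.76, 4.48 and 4.68 in GA+HR, with -0.72 ± 0.13 (adjusted p = 0.0016), -0.32 ± 0.13 (adjusted p = 0.0993) and -1.04 ± 0.13 (adjusted p = 1.13e-04) in the same order. The second of these passed without control 1 (adjusted p = 0.0478). TET3 passed the filter only through control libraries, with means of 1.78, 0.329 and 0.144 FPKM. This fixes the direction of its deposited change against control and favours its falls relative to the median locus.

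The remaining 6 enzymes stayed below the filter and were not tested. DNMT3B, a second enzyme of new DNA methylation, averaged 0.216 FPKM in control and 0.0462 in HR and was listed at 0 in every GA+HR library. HDAC11 averaged 1.11, 0.815 and 0.798 FPKM in control, HR and GA+HR, and KAT8, which acetylates H4K16, 1.08, 0.6104 and 0.438. SETD9 averaged 1.07, 0.257 and 0.254 FPKM, SIRT2, a cytoplasmic deacetylase, 0.5904, 0.599 and 0.448, and SIRT3, a mitochondrial deacetylase, 0.551, 0.298 and 0.294. A further 4 loci joined the name of an enzyme of these families to that of another gene and so were not members: KDM2A with LOC103352112, SETD2 with LOC108177102, KMT2D with PRKAG1 and KAT14 with PET117. In the authors' deposited table, a single test across the 3 groups gave a q-value below 0.05 for 55 of the 58 enzymes, all but DNMT3B, HDAC10 and HDAC11.

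Ratios of paralogues within a library do not depend on any scaling between libraries. The 9 pairs were chosen after their values were seen, so the ratios are a description, and with 3 libraries against 3 the two-sided exact permutation test cannot go below p = 0.1. The EZH2 to EZH1 ratio was 2.101 ± 0.392 in control, 1.06 ± 0.0964 in HR and 0.479 ± 0.0251 in GA+HR (mean ± SD, n = 3). No library of one group overlapped another: the ratios were 1.66, 2.22 and 2.42 in control, 1.03, 0.987 and 1.17 in HR and 0.508, 0.464 and 0.465 in GA+HR. The DNMT3A to DNMT1 ratio was 3.51 ± 0.325 in control, 1.65 ± 0.0954 in HR and 1.32 ± 0.254 in GA+HR, and here too the groups did not overlap. The KAT2B to KAT2A ratio was lower in HR than in both other groups, at 0.839 ± 0.157 in control, 0.236 ± 0.0242 in HR and 0.462 ± 0.0122 in GA+HR. All 3 of these ratios had an exact permutation p of 0.1 in each comparison.

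The KDM5C to KDM5B ratio was 0.86998 ± 0.106 in control, 1.11 ± 0.0422 in HR and 0.821 ± 0.0155 in GA+HR, so that the HR libraries were above both other groups, while control and GA+HR overlapped (exact permutation p = 0.8). The SIRT1 to SIRT5 ratio was 0.706 ± 0.122 in control, 0.285 ± 0.0527 in HR and 0.233 ± 0.0166 in GA+HR, with overlap between HR and GA+HR (exact permutation p = 0.3). The KMT5B to KMT5A ratio was 1.0003 ± 0.267 in control, 0.667 ± 0.0433 in HR and 0.614 ± 0.0943 in GA+HR. Its exact permutation p was 0.5 in GA+HR against HR and 0.1 in both comparisons with control. The TET2 to TET1 ratio was 2.28 ± 0.203 in control, 2.04 ± 0.2002 in HR and 1.46 ± 0.343 in GA+HR. Here the exact permutation p was 0.3 in HR against control and 0.1 in the other comparisons. The EP300 to CREBBP ratio was 0.266 ± 0.0169 in control, 0.236 ± 0.0267 in HR and 0.204 ± 0.0192 in GA+HR. Its exact permutation p was 0.3 in HR against control, 0.2 in GA+HR against HR and 0.1 in GA+HR against control. The HDAC4 to HDAC5 ratio was 0.155 ± 0.0285 in control, 0.163 ± 0.00578 in HR and 0.121 ± 0.0452 in GA+HR, with exact permutation p of 0.3 to 0.5.

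**Figure D3:**
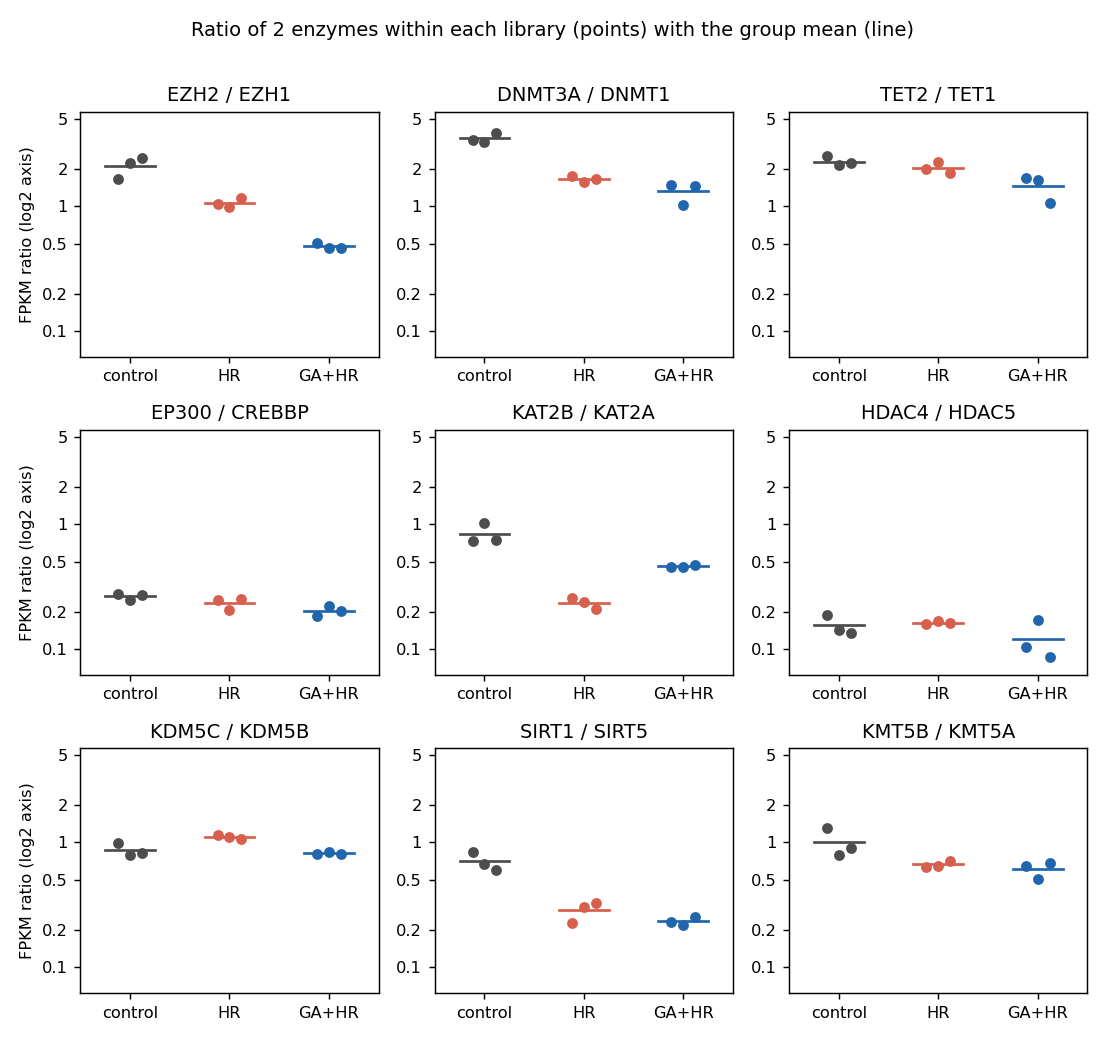
Ratio of the FPKM of 2 related enzymes within each library, for 9 pairs chosen after their values were seen, on log axes; points are libraries and lines are group means. The mean EZH2 to EZH1 ratio is 2.10 in control, 1.06 in HR and 0.479 in GA+HR, and that of KAT2B to KAT2A 0.839, 0.236 and 0.462.

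Partners and cofactor genes of these enzymes were counted in lists of their own. The shares of all loci tested that rose and fell, 27.6% and 28.9% in HR against control, 18% and 15.2% in GA+HR against HR and 31.9% and 36.6% in GA+HR against control, stand as the background to these counts. Among 51 tested subunits of the same complexes, 15 rose and 18 fell in HR against control, 4 rose and 11 fell in GA+HR against HR, and 12 rose and 24 fell in GA+HR against control. These are 29.4% and 35.3%, 7.84% and 21.6%, and 23.5% and 47.1% of the list, the first pair lying near the background. OGT, the O-GlcNAc transferase that binds TET proteins, changed by -0.65 ± 0.071, -1.43 ± 0.071 (limma adjusted p = 4.46e-06) and -2.08 ± 0.071 in the same order. ING1, an H3K4me3 reader of the Sin3 complex, rose by 1.38 ± 0.13 in HR against control and by 1.52 ± 0.13 in GA+HR against control, with deposited changes of 0.0079 and -0.48. Among 30 readers and PRC1 subunits, 6 rose and 13 fell in HR against control, 6 rose and 5 fell in GA+HR against HR, and 6 rose and 13 fell in GA+HR against control. The shares of 20% and 16.7% in GA+HR against HR lay near those of all loci, and the comparisons with control each had 20% rising and 43.3% falling. UHRF2, a reader of hemimethylated DNA, changed by -0.86 ± 0.11 and -1.21 ± 0.11 against control. RING1, the E3 ligase of PRC1, rose by 1.10 ± 0.12 in HR against control (deposited -0.27).

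Among 21 other methyltransferases, 6 rose and 5 fell in HR against control, 1 rose and 4 fell in GA+HR against HR, and 8 rose and 5 fell in GA+HR against control. In HR against control these were 28.6% and 23.8% of the list, beside 27.6% and 28.9% of all loci, and in GA+HR against control 38.1% and 23.8%, beside 31.9% and 36.6%. PRMT1, the main arginine methyltransferase, rose by 1.09 ± 0.11 and 1.27 ± 0.11 against control (deposited -0.28 and -0.72), while PRDM2, an H3K9 methyltransferase, changed by -0.63 ± 0.092 and -1.33 ± 0.092. Among 8 other demethylases, 2 rose and 3 fell, 0 rose and 3 fell, and 1 rose and 5 fell in that order of comparisons, which is 25% and 37.5%, 0% and 37.5%, and 12.5% and 62.5% of the list. JMJD1C, a relative of KDM3B, changed by -0.75 ± 0.098, -0.60 ± 0.098 and -1.35 ± 0.098. Of 12 genes of cofactor supply, 3 rose and 1 fell, 3 rose and 1 fell, and 5 rose and 1 fell, with rising shares of 25%, 25% and 41.7% beside 27.6%, 18% and 31.9% of all loci. AHCY, which clears the methylation by-product S-adenosylhomocysteine, rose by 1.04 ± 0.070, 0.48 ± 0.070 and 1.51 ± 0.070, with deposited changes of -0.38, -0.17 and -0.55. MAT2A, which makes the methyl donor S-adenosylmethionine, fell in GA+HR against HR (-0.53 ± 0.14) and against control (-0.65 ± 0.14).

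Several lists moved together with these results, and their part in the results was not tested. Of all loci, 28.9%, 15.2% and 36.6% fell and 27.6%, 18% and 31.9% rose in the 3 comparisons. Of 35 housekeeping genes known for long transcripts, 29, 21 and 34 fell and none rose, with medians of -0.56, -0.30 and -0.97. Of 30 housekeeping genes known for short transcripts, 28, 21 and 29 rose and none fell, with medians of 1.12, 0.52 and 1.55, and deposited medians of -0.23, -0.12 and -0.40. The medians of the enzymes, -0.29, -0.23 and -0.50, lay between those of the lists. Both lists were written after the values of the enzymes were seen. Of 9 tested proliferation genes, 6 rose and none fell in HR against control, 2 rose and 1 fell in GA+HR against HR, and 6 rose and none fell in GA+HR against control, so that 66.7%, 22.2% and 66.7% of the list rose beside 27.6%, 18% and 31.9% of all loci, with deposited medians of -0.73, -0.24 and -0.81. RRM2, a ribonucleotide reductase subunit made in S phase, rose by 2.94 ± 0.22 in HR against control (deposited 1.75) and changed by -0.998 ± 0.22 in GA+HR against HR.

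**Figure D4:**
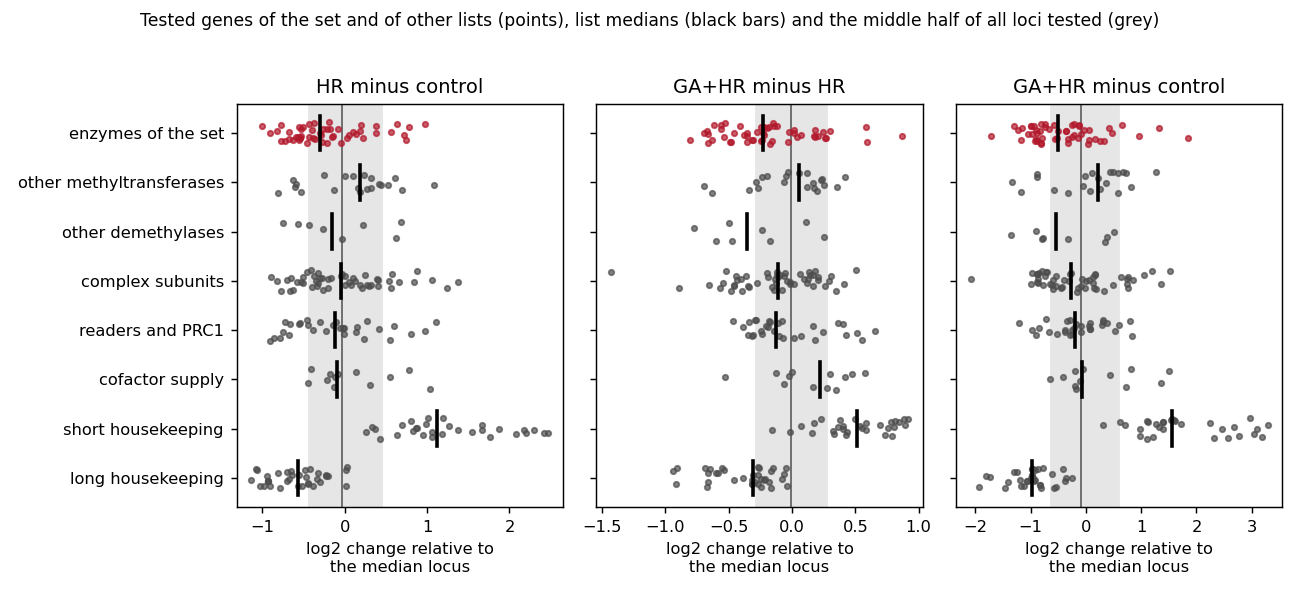
Log2 changes relative to the median locus of the enzymes and of the other gene lists in the 3 comparisons; points are genes and bars are list medians. The enzymes (medians -0.29, -0.23 and -0.50) lie between the long (-0.56, -0.30 and -0.97) and the short (1.12, 0.52 and 1.55) housekeeping transcripts; on deposited FPKM the medians of the short transcripts were -0.23, -0.12 and -0.40.

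Among markers of parathyroid cells, PTH, the hormone itself, reached at most 0.142 FPKM, CHGA 0.379 and GATA3 0.0456. The summed FPKM of 9 fibroblast markers was 128822 to 193154 in control, 29427 to 29497 in HR and 13932 to 14089 in GA+HR. Of these 9, 6 fell and 1 rose in HR against control (28.9% and 27.6% of all loci). In GA+HR against HR 5 fell and 1 rose (15.2% and 18%), and in GA+HR against control 7 fell and 2 rose (36.6% and 31.9%). These calls are relative to the median locus, and the deposited medians of the 9 were -2.31, -0.76 and -3.46 in the same order. The summed FPKM of 10 macrophage markers was 4.74 to 76.0 in control, lowest in control 1, 19.6 to 22.9 in HR and 146 to 152 in GA+HR. All 4 macrophage markers tested rose in GA+HR against HR and in GA+HR against control, where 18% and 31.9% of all loci rose. In HR against control 2 of 4 rose relative to the median locus, beside 27.6% of all loci, while their deposited median was -0.29. The deposited median of the 4 was 2.40 in GA+HR against HR and 2.18 in GA+HR against control. PTPRC was at most 0.111 FPKM. Smooth muscle markers (4 found) summed to 2317 to 3598 FPKM in control, 2479.7 to 2500.2 in HR and 1291 to 1322 in GA+HR, and endothelial markers to at most 1.43 in any library. Markers of epithelium summed to at most 0.251 FPKM and those of lymphocytes to at most 0.122. The part of these cell types in the enzyme results was not tested.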

How the data were processed

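RNA of 9 libraries of primary rabbit parathyroid cells, 3 per group, was analysed from 1 deposited expression table. Its values are FPKM made by the authors, per the file headers, next to a p-value and q-value, deposited by the authors, of a single test over the 3 groups. Per the submitters' processing notes the builds are GRCm38 and mm10, of mouse, while the transcripts are rabbit RefSeq entries, so no coordinates are given. The aligner, counter and strand setting are not given in the sources used here, so reads of overlapping, antisense or near-identical genes cannot be separated. There are no counts, the depth is unknown, and precision rests on the spread between libraries. The median coefficient of variation of the enzymes was 11.0% in control, 6.21% in HR and 10.6% in GA+HR.

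Each library was divided by a size factor, its median ratio to the average of the libraries over those loci that reach an FPKM of 1 in all 9. The filter kept 10996 loci with a deposited FPKM of 1 or more in 3 or more libraries. A mean per group was fitted to log2(value + 1) with limma 3.58.1 in R 4.3.3 (eBayes, trend and robust), with two-sided p-values, Benjamini-Hochberg adjustment over all loci and a threshold of 0.05. The procedure was run on simulated data with as many rises as falls planted in HR alone, in a small part of the loci. That setting cannot test the centring on the median locus in data where many loci move. Alternatives were FPKM as deposited, equal sums, quantile normalisation, a pseudocount of 0.1, no filter, only the groups compared, a replicate block and each library left out in turn. Full values were given for up to 8 enzymes per direction and comparison with the largest log2 change among those called whose groups did not overlap, and for the enzyme of each role with the highest mean FPKM. For each partner list up to 3 genes per direction and comparison could be named. Enzymes named outside these rules are given by their means and changes. The members and lists were chosen with earlier results of these data known. No sequence is shown, since only a gene table of the rabbit was used.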

Additional observations from a re-analysis of the deposited data

How the results depend on the processing

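On FPKM as deposited, 0, 0 and 0 enzymes rose and 52, 45 and 51 fell (HR against control, GA+HR against HR, GA+HR against control), with medians of -1.65, -0.79 and -2.42. There the rises turned to -0.41 for HDAC10, -0.63 for KAT5, -0.71 for SIRT5, -0.70 for KAT2A, -0.74 for HDAC8, -1.01 for DNMT1 and -0.94 for EZH1 in HR against control; to -0.024 for EZH1, -0.081 for SIRT5 and -0.32 for KAT2B in GA+HR against HR; and to -0.19 for HDAC10, -0.79 for SIRT5, -0.97 for EZH1, -1.39 for KAT5, -1.60 for HDAC3, -1.55 for HDAC8 and -1.49 for HDAC1 in GA+HR against control. This follows from the construction of that scale, which keeps the fall of the median locus. Of all loci called, 48.9%, 54.3% and 46.6% were higher relative to the median locus, against 4.64%, 2.56% and 4.35% as deposited, 30.5%, 41.4% and 31.1% at equal sums and 43.2%, 52.9% and 42.8% after quantile normalisation. At equal sums the median was -0.54 in HR against control and -0.73 in GA+HR against control, where 3 enzymes rose and HDAC1 turned to -0.051. With no filter 11 rose in GA+HR against control, with a median of -0.34 over more genes. A filter on the scaled values, chosen after seeing the data, gave 9, 4 and 9 rising and 24, 19 and 30 falling. Quantile normalisation, the pseudocount of 0.1 and fitting only the groups compared moved no count of risen or fallen enzymes beyond 1.5 times. With each library left out in turn, 5 to 7 rose and 22 to 27 fell in HR against control (median -0.34 to -0.25), 3 to 7 rose and 12 to 22 fell in GA+HR against HR (median -0.26 to -0.20), and 6 to 7 rose and 28 to 31 fell in GA+HR against control (median -0.55 to -0.35). In GA+HR against HR the 7 came without control 1, and the 12 without HR 1 or without HR 3. Same-numbered libraries did not deviate together across loci (correlations of -0.0206 to 0.0262). Such correlations cannot tell whether they shared an animal, culture or batch. With a replicate block, 7, 4 and 7 rose and 25, 18 and 31 fell. Of the calls, 31 of 32, 21 of 23 and 38 of 38 were kept under the block, with 1 (KDM1A, adjusted p = 0.0416), 1 (HDAC3, adjusted p = 0.0466) and 0 gained. A centring within bins of protein length was not run for want of lengths. Unknown depth limits the 6 enzymes below the filter.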
